A study of Mus musculus with 28 samples.

Results

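Gene expression in mouse skeletal muscle was measured after the cytokine interleukin 1b (IL-1b) had been injected into the fluid-filled ventricles of the brain, and the change of its effect from 4 to 8 h is described here. For each probe set the IL-1b minus vehicle difference at 4 h was subtracted from that at 8 h, over 17831 probe sets and 18 of the study's 28 arrays. The groups were vehicle at 4 h (5 arrays), IL-1b at 4 h (5 arrays), vehicle at 8 h (5 arrays) and IL-1b at 8 h (3 arrays). Vehicle was injected the same way, and the labels give no strain, age, sex, dose or composition of the vehicle, nor which muscle was taken. The other 10 arrays, vehicle and IL-1b at 2 h, entered the fit only to estimate the spread. Nothing in the labels ties each array to its own animal, and the p-values therefore reflect array-to-array spread, part of which may be technical.

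A change of effect can come from the IL-1b arrays, from the vehicle arrays or from both. Vehicle animals are not a fixed baseline: muscle has its own circadian clock, built on the activators Arntl and Clock and their repressors, and genes of that clock and of feeding and glucocorticoid rhythms can drift over a few hours in untreated mice. Muscle loses protein in inflammation mainly through the ubiquitin-proteasome system, where FoxO transcription factors and glucocorticoids induce the ubiquitin ligase gene Fbxo32, while TGF-b family signals and the ID proteins act on muscle growth and differentiation. The genes below are described by the change of effect, by the 8 h minus 4 h difference among IL-1b arrays (the IL-1b arm) and by the same difference among vehicle arrays (the vehicle arm).

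All values are log2 and centred on each probe set's median, so 0 is the median of the 28 arrays and no value is an expression level. Errors are standard errors of the model (SE), with n = 5 in each group except n = 3 for IL-1b at 8 h. Every adjusted p comes from limma (moderated statistics, adjusted by Benjamini-Hochberg across the 17831 probe sets), and a result is called at an adjusted p under 0.01. Because 4 group means enter it, the change had a standard error 1.53 times that of the 4 h effect. Of the 18 arrays, 2 had a wide spread over probe sets. Their SDs were 0.317 (replicate 1 of vehicle at 8 h) and 0.330 (replicate 22 of IL-1b at 8 h), where the others ran from 0.130 to 0.223. Both are at 8 h, so values without them are given where a call rests on them. None of the 8 measured muscle fibre markers had a called change (0 at an unadjusted p under 0.05 in limma) and their median change was -0.01, but centred values cannot show whether a marker is present.

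The effect of IL-1b changed between 4 and 8 h for 31 of 17831 probe sets (0.174%), 14 toward higher values (0.0785%) and 17 toward lower values (0.0953%). At a looser adjusted p of 0.05, 79 passed (0.443%), and 1271 (7.13%) had an unadjusted p under 0.05. Of the 31, 24 had passed the test among IL-1b arrays, 3 among vehicle arrays and 4 in neither arm. The IL-1b arm was the larger of both for 27 of the 31, with a median size of 0.78 against 0.21 for the vehicle arm, and the arms had opposite signs for 25. Over all probe sets 209 moved among IL-1b arrays (1.17%) and 23 among vehicle arrays (0.129%). These shares used the same arrays as the change and are given as a description. The vehicle count rested on single arrays: it ran from 6 to 26 when 1 array was left out, and was 7 without both arrays of wide spread. The IL-1b count was 134 without IL-1b 4 h replicate 22, and 108, 132 and 124 without IL-1b 8 h replicates 14, 22 and 26. The 4 h count below was 93 without vehicle 4 h replicate 17.

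**Figure D1:**
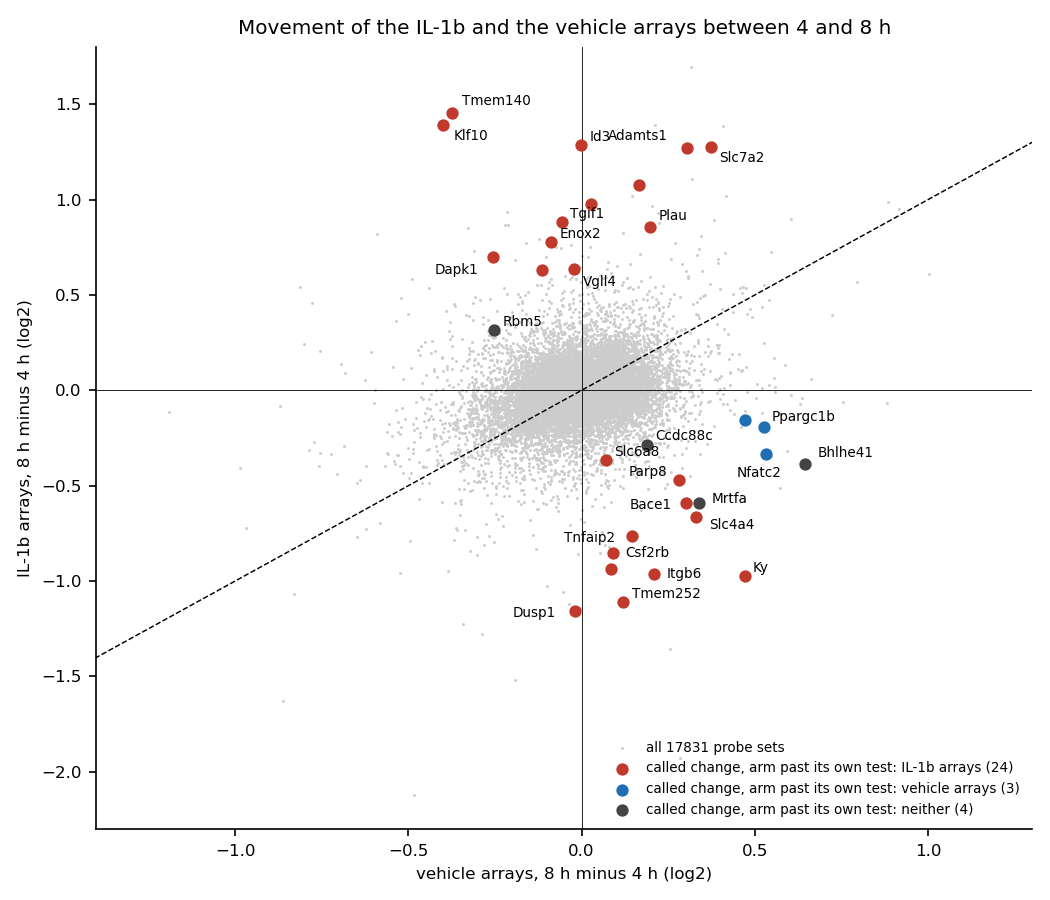
Difference between 8 and 4 h among vehicle arrays (x axis, log2) and among IL-1b arrays (y axis, log2) for 17831 probe sets. Coloured points are the 31 with a called change, by the arm that passed its own test, and the 26 with 1 gene symbol are named. On the dashed line both arms move equally and the IL-1b effect does not change. Most coloured points lie far from 0 on the y axis and near 0 on the x axis, and the 3 vehicle-moved points lie near 0.5 on the x axis.

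Most of the 31 had an effect that was called at 8 h and not called at 4 h. Among the 31, 22 had a called IL-1b effect at 8 h alone, 6 at 4 h alone and 3 at both times, and for 21 the effects at the 2 times had opposite signs. Over all probe sets, 151 had a called effect at 4 h (0.847%) and 373 at 8 h (2.09%). A call at 1 time alone did not amount to a called change: 289 probe sets were called at 8 h, not at 4 h, and had no called change, and 83 were called at 4 h, not at 8 h, and had none. The 62 called at both times are 41.1% of the 4 h list and 16.6% of the 8 h list, and 61 of them kept their sign. Effects called higher at 4 h (103) had a median of 0.65 then and 0.42 at 8 h. Those called higher at 8 h (182) had a median of 0.25 at 4 h and 0.63 at 8 h. Selection at one time favours a larger value at that time, so neither pair of medians is a test. Of the 31, 26 carried a single gene symbol and are described below, and 5 matched several symbols and are not named.

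**Figure D2:**
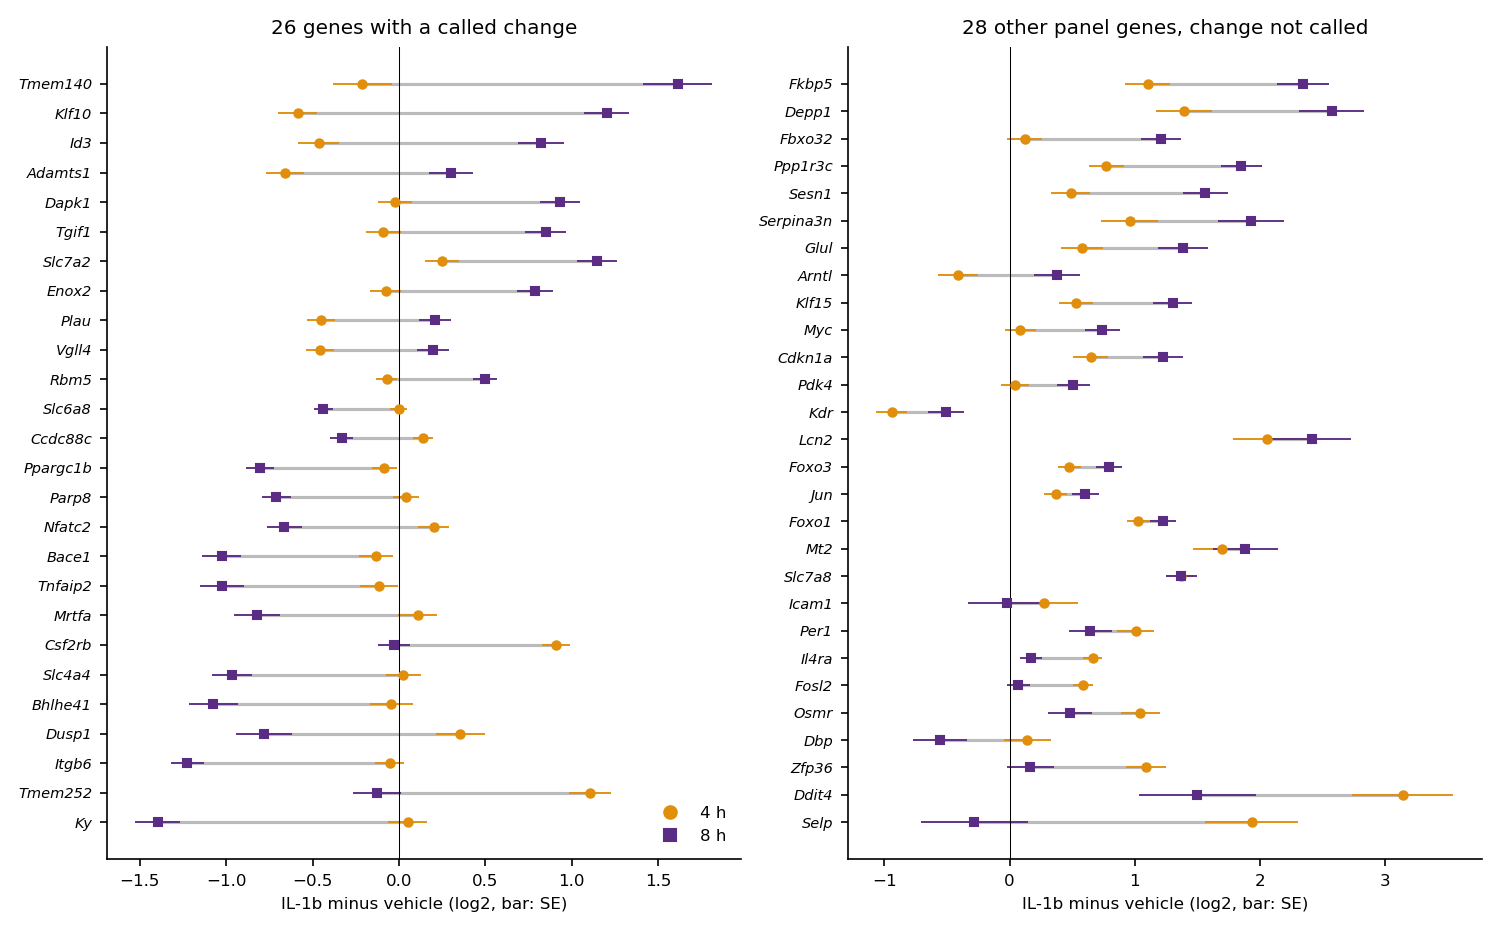
IL-1b minus vehicle (x axis, log2, with SE) at 4 h (circles) and 8 h (squares) for the 26 named genes with a called change (left) and 28 panel genes whose change was not called (right), ordered by the change. On the left, most circles sit near 0 and squares lie to either side. For Tmem252, Csf2rb, Adamts1, Plau and Vgll4 the circle lies further from 0 than the square. For Klf10 both lie far from 0.

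The starting points of 3 called genes are shown because these genes stand for different patterns. Tmem140 had the largest positive change of the called genes. Bhlhe41 belongs to the clock, and its vehicle arm was the larger, though neither arm passed its own test. Among immediate early genes with a called change, Dusp1 is the one whose effect went from above 0 (not called) to below 0. Each window runs from 250 bases before to 50 bases after the RefSeq start site (build GRCm38.p6, 5′ to 3′ on the gene's strand). Tmem140 lies at chr6:34862896-34863195 on the plus strand, Bhlhe41 at chr6:145865371-145865670 on the minus strand and Dusp1 at chr17:26508423-26508722 on the minus strand. Capitals mark matches to a FoxO site (GTAAACA), an E-box (CACGTG, bound by clock factors including Bhlhe41) and a cAMP response element (TGACGTCA), searched on both strands.
Tmem140: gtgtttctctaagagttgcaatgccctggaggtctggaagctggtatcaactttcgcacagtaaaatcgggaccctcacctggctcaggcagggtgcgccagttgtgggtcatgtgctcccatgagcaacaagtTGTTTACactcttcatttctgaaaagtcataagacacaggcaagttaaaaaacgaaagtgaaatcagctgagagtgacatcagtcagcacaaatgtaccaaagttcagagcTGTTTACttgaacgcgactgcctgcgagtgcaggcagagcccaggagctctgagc
Bhlhe41: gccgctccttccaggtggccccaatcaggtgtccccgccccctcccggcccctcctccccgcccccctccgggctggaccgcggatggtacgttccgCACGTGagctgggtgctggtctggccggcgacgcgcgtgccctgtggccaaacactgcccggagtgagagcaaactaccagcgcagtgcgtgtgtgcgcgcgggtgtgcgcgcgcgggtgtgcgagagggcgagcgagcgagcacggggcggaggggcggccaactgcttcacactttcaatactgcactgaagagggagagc
Dusp1: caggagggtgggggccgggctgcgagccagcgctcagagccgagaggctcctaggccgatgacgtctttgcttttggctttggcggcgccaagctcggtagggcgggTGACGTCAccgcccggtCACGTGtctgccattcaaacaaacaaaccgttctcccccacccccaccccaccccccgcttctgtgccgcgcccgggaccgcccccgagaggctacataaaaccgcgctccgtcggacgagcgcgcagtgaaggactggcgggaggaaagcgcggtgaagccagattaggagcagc
The Tmem140 window holds the FoxO site on the reverse strand at 2 places, the Bhlhe41 window 1 E-box, and the Dusp1 window 1 cAMP response element followed by 1 E-box.

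RefSeq windows were found for 18 of the 26 named genes, 26 windows in all, since some genes have several starts. The E-box was in the windows of Bhlhe41, Dusp1 and Vgll4, and in 7.15% of 32851 windows of all genes. The cAMP response element was in that of Dusp1, against 1.79% of all windows, and the FoxO site in those of Tmem140 and 1 of Nfatc2, against 3.65%. The glucocorticoid response element half-site (AGAACA) was in windows of Parp8 and Tgif1, against 18.97%, and the AP-1 site (TGACTCA) in none of the 26, against 5.2%. A match describes the letters of a window, not binding.

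Klf10 and Id3, which respond to TGF-b family signals, had IL-1b effects below 0 at 4 h and above 0 at 8 h, called at both times for Klf10 and at 8 h for Id3. Klf10 is a zinc finger transcription factor first known as a TGF-b inducible early gene. In vehicle arrays its values were -0.19, -0.06, 0.13, 0.26 and 0.50 at 4 h and -0.42, -0.39, -0.30, -0.26 and 0.02 at 8 h. In IL-1b arrays they were -0.55, -0.48, -0.48, -0.38 and -0.38 at 4 h and 0.73, 0.85 and 1.21 at 8 h. The 5 IL-1b arrays at 4 h lay below all 5 vehicle arrays of that time, and the 3 at 8 h lay above every other array at either time. The effect was -0.59 ± 0.11 at 4 h (adjusted p = 0.00321) and 1.20 ± 0.13 at 8 h (adjusted p = 1.1e-06), a change of 1.79 ± 0.17 (adjusted p = 1.77e-06) or 3.46-fold. It was the IL-1b arrays that moved (1.39 ± 0.13, adjusted p = 4.99e-07), and the vehicle arrays differed by -0.40 without passing (adjusted p = 0.151). Its 4 h effect did not pass when any 1 of 4 arrays was left out (adjusted p up to 0.0185), while its change passed in all 18 such fits.

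Id3, an inhibitor of bHLH transcription factors and a textbook target of BMP signalling, showed the same order of groups. Its vehicle arrays read -0.29, -0.28, -0.01, 0.00031 and 0.11 at 4 h and -0.41, -0.20, -0.09, 0.02 and 0.21 at 8 h. Its IL-1b arrays read -0.77, -0.72, -0.53, -0.50 and -0.27 at 4 h and 0.69, 0.73 and 0.76 at 8 h. The IL-1b arrays at 8 h again lay above every other array at 4 or 8 h. Those at 4 h overlapped the vehicle arrays of that time by a single array. Vehicle arrays barely differed (-0.0015, adjusted p = 0.999) and IL-1b arrays rose by 1.29 ± 0.14 (adjusted p = 1.41e-06), so the whole change of 1.29 ± 0.18 (adjusted p = 0.000375) lay in the IL-1b arm. At 4 h the effect of -0.46 did not pass (adjusted p = 0.0389), and at 8 h it was 0.82 (adjusted p = 0.000287). Tgif1, a homeobox corepressor of TGF-b signalling, rose among IL-1b arrays by 0.88 ± 0.12 (adjusted p = 4.71e-05) with a change of 0.94 (adjusted p = 0.00237). Its 3 values at 8 h, 0.59, 0.69 and 1.05, stood above the -0.24 to 0.02 of IL-1b arrays at 4 h. Without IL-1b 8 h replicate 26 its change was 0.80 and did not pass (adjusted p = 0.0185). Id3 was the 1 called gene of the list of BMP ligands, ID genes and inhibitory SMADs, 23 of 25 measured (0.174% called over all probe sets). The median change of that list was -0.03 (0.01 without both arrays of wide spread) against -0.0033 over all probe sets.

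Tmem140, Slc7a2, Dapk1, Enox2 and Rbm5 had a called IL-1b effect at 8 h and not at 4 h, toward higher values. Tmem140, which encodes a transmembrane protein, had the largest change in size of the 26 named genes with a called change. The vehicle values of Tmem140 were 0.05, 0.23, 0.28, 0.33 and 0.64 at 4 h and -0.47, -0.42, -0.23, 0.36 and 0.42 at 8 h. The IL-1b values of Tmem140 were -0.40, -0.07, 0.25, 0.30 and 0.39 at 4 h and 1.34, 1.39 and 1.91 at 8 h. Only the 3 IL-1b arrays at 8 h stood apart, above 1.3, and the vehicle arrays at 8 h were split between 3 values below 0 and 2 above. The change was 1.83 ± 0.26 (adjusted p = 0.000583, 3.55-fold), of which 1.45 ± 0.20 came from the IL-1b arrays (adjusted p = 6.03e-05) and the rest from a vehicle difference of -0.37 that did not pass (adjusted p = 0.557).

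Slc7a2 encodes a carrier of arginine, lysine and other cationic amino acids. Slc7a2 measured -0.31, -0.24, -0.22, -0.08 and 0.15 in vehicle arrays at 4 h and 0.05, 0.06, 0.17, 0.33 and 0.55 at 8 h. It measured -0.10, 0.04, 0.12, 0.22 and 0.26 in IL-1b arrays at 4 h and 1.21, 1.35 and 1.58 at 8 h. Values were higher at 8 h in both arms, by 1.27 ± 0.11 among IL-1b arrays (adjusted p = 3.51e-07) and by 0.37 ± 0.10 among vehicle arrays, which did not pass (adjusted p = 0.103). The change was 0.90 ± 0.15 (adjusted p = 0.00237), and 0.80 without IL-1b 8 h replicate 14, when it did not pass (adjusted p = 0.0161). After a further quantile normalization it was 0.39 and did not pass (adjusted p = 0.746). Of 38 measured genes of amino acid transport and glutamine metabolism, Slc7a2 was called higher and the creatine transporter gene Slc6a8 lower (0.174% called over all probe sets). The median change over the list was 0.04 (-0.0067 without both arrays of wide spread). Slc43a1, an amino acid carrier named after its value was seen, had a change of 0.98 ± 0.20 just short of the threshold (adjusted p = 0.0155) and rose by 1.39 among IL-1b arrays (adjusted p = 1.8e-06). Slc7a8, a carrier of neutral amino acids, had nearly equal effects at both times, 1.37 ± 0.11 at 4 h and 1.37 ± 0.12 at 8 h, with a change of 0.01 ± 0.16 and arms of 0.01 (IL-1b) and 0.0027 (vehicle) that did not pass.

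Dapk1, a calmodulin-regulated kinase linked to cell death and autophagy, measured -0.24 to 0.23 in IL-1b arrays at 4 h and 0.60, 0.64 and 0.78 at 8 h. Its change was 0.95 ± 0.15 (adjusted p = 0.00145), with 0.70 in the IL-1b arm (adjusted p = 0.000561) and -0.26 in the vehicle arm (adjusted p = 0.433). Enox2, a cell surface oxidase, rose among IL-1b arrays by 0.78 ± 0.10 (adjusted p = 4.71e-05), with values of -0.24 to 0.05 at 4 h and of 0.53, 0.62 and 1.02 at 8 h, and its change was 0.86 (adjusted p = 0.00153). Its vehicle arrays differed by -0.09 (adjusted p = 0.863). For Rbm5, an RNA-binding regulator of splicing, neither arm passed alone. Its IL-1b arrays differed by 0.32 (adjusted p = 0.0101) and its vehicle arrays by -0.25 (adjusted p = 0.068), and the change of 0.57 ± 0.09 passed (adjusted p = 0.00197). Without both arrays of wide spread the Dapk1 change was 0.89 and that of Slc7a2 0.88, and neither passed (adjusted p = 0.0129 for both).

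Genes called lower under IL-1b at 8 h and not at 4 h made up the largest set of named genes and included genes of muscle structure, adhesion and transport. Ky, the kyphoscoliosis peptidase gene needed for normal muscle growth in mice, had the largest negative change of the called genes. In vehicle arrays its values were -0.17, -0.17, -0.14, 0.04 and 0.14 at 4 h and 0.01, 0.33, 0.47, 0.59 and 0.65 at 8 h. In IL-1b arrays they were -0.13, -0.10, 0.0031, 0.04 and 0.13 at 4 h and -1.04, -0.99 and -0.93 at 8 h. At 4 h the groups overlapped throughout, and at 8 h every IL-1b array lay near -1 while every vehicle array lay above 0. The change was -1.45 ± 0.17 (adjusted p = 3.42e-05), and the IL-1b arm of -0.98 ± 0.13 passed (adjusted p = 3.78e-05). Vehicle arrays differed the other way by 0.47 without passing (adjusted p = 0.0637).

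Itgb6 encodes the b6 subunit of an integrin that activates latent TGF-b. Its vehicle arrays read -0.13, -0.10, -0.07, -0.03 and -0.03 at 4 h and -0.02, -0.01, 0.01, 0.33 and 0.37 at 8 h. Its IL-1b arrays read -0.32, -0.17, -0.14, -0.10 and 0.10 at 4 h and -1.20, -1.13 and -0.94 at 8 h. The 3 IL-1b arrays at 8 h lay below -0.9, and no other array at 4 or 8 h lay below -0.4. IL-1b arrays fell by 0.96 (SE 0.10, adjusted p = 7.13e-07), vehicle arrays differed by 0.21 (adjusted p = 0.457), and the change was -1.17 ± 0.13 (adjusted p = 8.79e-06). The effect itself was -0.05 at 4 h (adjusted p = 0.939) and -1.23 at 8 h (adjusted p = 1.11e-08).

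The IL-1b arrays also moved for Slc4a4, Bace1, Slc6a8, Tnfaip2 and Parp8. Slc4a4, a sodium bicarbonate cotransporter, had IL-1b values of -0.76, -0.69 and -0.55 at 8 h against -0.08 to 0.17 at 4 h, and a change of -0.99 ± 0.15 (adjusted p = 0.00113). Bace1, the b-secretase, had -0.84, -0.74 and -0.71 against -0.37 to -0.03 and a change of -0.89 ± 0.15 (adjusted p = 0.00237). For Slc6a8, which carries creatine into muscle, the IL-1b values were -0.47, -0.36 and -0.34 against -0.15 to 0.04, and the change of -0.43 ± 0.07 was the smallest in size among the 26 called genes (adjusted p = 0.00244). In all 3 genes the IL-1b arrays at 8 h lay below every array at 4 h. The IL-1b arm was -0.66 for Slc4a4 (adjusted p = 0.00114), -0.59 for Bace1 (adjusted p = 0.00291) and -0.36 for Slc6a8 (adjusted p = 0.000196). Vehicle arrays differed by 0.33, 0.30 and 0.07, and none of these passed. Without IL-1b 8 h replicate 14 the changes of Bace1 and Slc6a8 did not pass (adjusted p = 0.0131 and 0.0161).

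Tnfaip2, a gene first found as induced by TNF, fell among IL-1b arrays by 0.76 (adjusted p = 0.000862), with values of -0.39 to -0.06 at 4 h and of -1.14, -0.88 and -0.87 at 8 h, with a change of -0.91 ± 0.17 (adjusted p = 0.00909). Parp8, a member of the ADP-ribosyltransferase family, fell among IL-1b arrays by 0.47 (adjusted p = 0.00159), with a change of -0.75 ± 0.11 (adjusted p = 0.000853). Vehicle arrays differed by 0.15 for Tnfaip2 and 0.28 for Parp8, and neither passed. Without both arrays of wide spread the changes of Slc4a4 and Parp8 still passed (adjusted p = 0.00971 and 0.00323), but the IL-1b arm of either gene did not (adjusted p = 0.0103 for both). Tnfaip2 then kept its IL-1b arm (adjusted p = 0.0034) and its change did not pass (adjusted p = 0.0241). Leaving out 1 array ended the Tnfaip2 call in 14 of 18 fits.

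Mrtfa and Ccdc88c passed for the change but in neither arm. Mrtfa, the actin-regulated coactivator of serum response factor, had IL-1b arrays that differed by -0.59 (adjusted p = 0.0117) and vehicle arrays that differed by 0.34 (adjusted p = 0.299), for a change of -0.93 ± 0.18 (adjusted p = 0.00909). Ccdc88c, a Dishevelled-binding protein of Wnt signalling, had arms of -0.28 (adjusted p = 0.0176) and 0.19 (adjusted p = 0.215) and a change of -0.47 ± 0.09 (adjusted p = 0.00909). Its vehicle arrays at 4 h, -0.22 to -0.04, already lay below the -0.0023 to 0.05 of IL-1b arrays at that time. Both calls were near the threshold: leaving out 1 array ended that of Mrtfa in 14 of 18 fits and that of Ccdc88c in 15, and neither passed without both arrays of wide spread (adjusted p = 0.0146 and 0.0129).

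**Figure D3:**
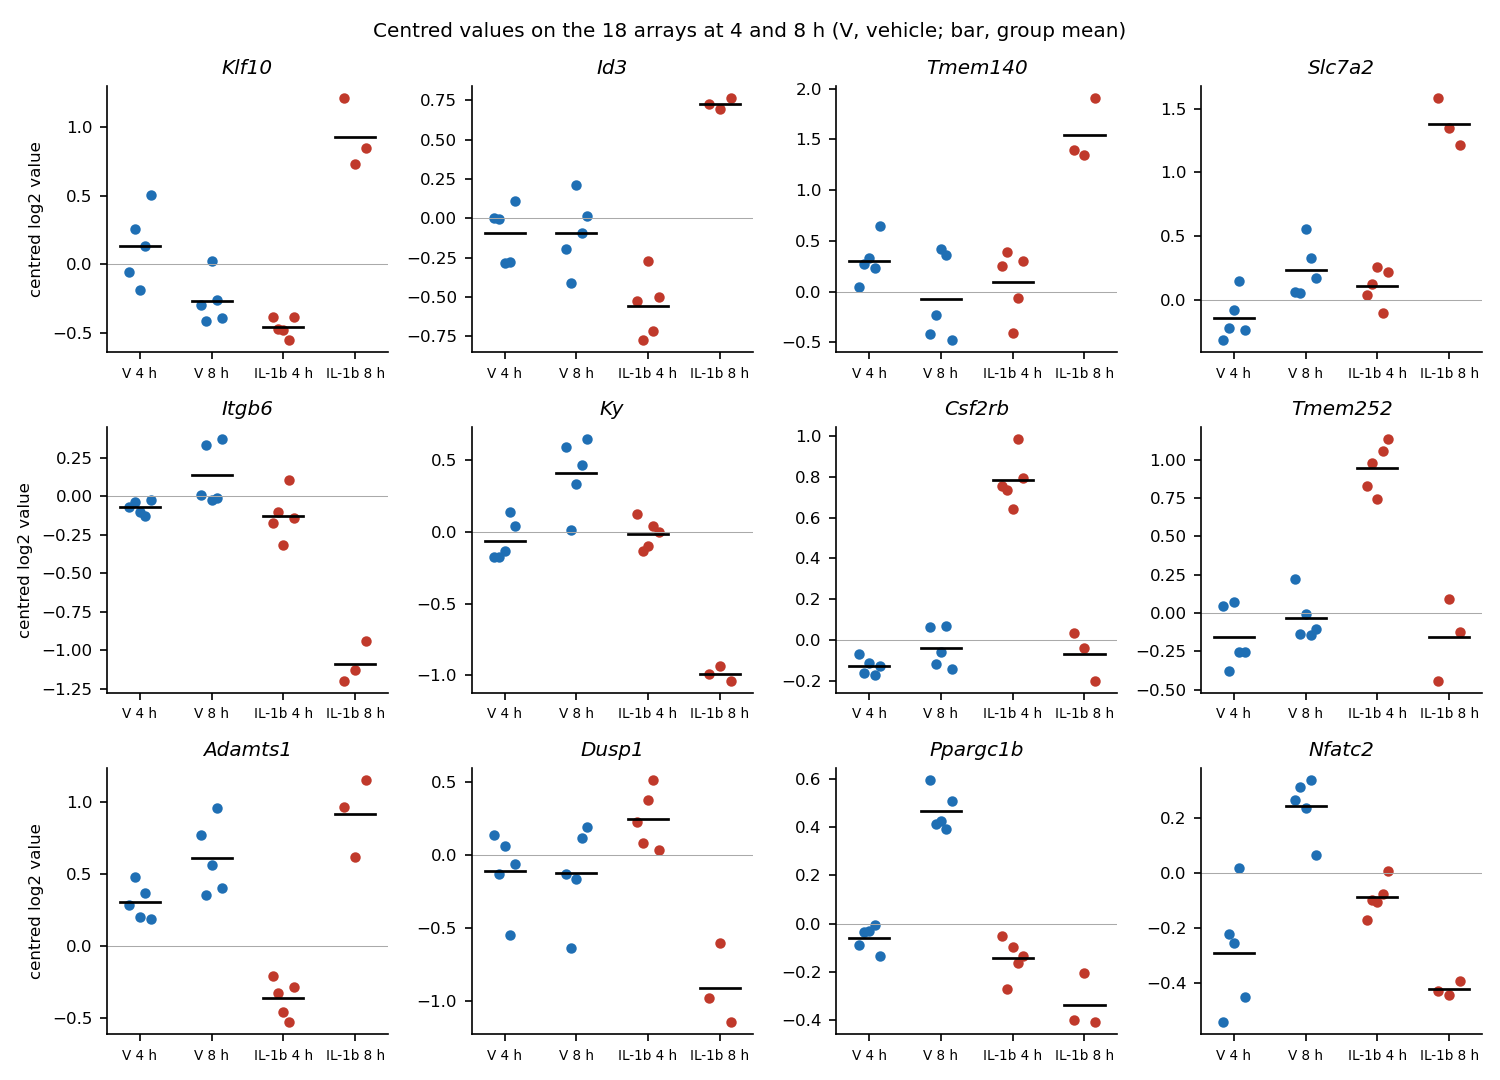
Centred log2 value (y axis) on each of the 18 arrays at 4 and 8 h for 12 genes, vehicle in blue and IL-1b in red, with a bar at each group mean. In Klf10, Id3, Tmem140, Slc7a2, Itgb6 and Ky the 3 IL-1b arrays at 8 h stand apart, in Csf2rb and Tmem252 the 5 at 4 h do, and in Ppargc1b the 5 vehicle arrays at 8 h do.

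A second set had an effect that was called at 4 h and not at 8 h, and here too the IL-1b arrays moved. Csf2rb encodes the b chain shared by the receptors for GM-CSF, interleukin 3 and interleukin 5. The vehicle values of Csf2rb were -0.17, -0.16, -0.13, -0.11 and -0.07 at 4 h and -0.14, -0.12, -0.06, 0.06 and 0.07 at 8 h. The IL-1b values of Csf2rb were 0.64, 0.74, 0.75, 0.80 and 0.98 at 4 h and -0.20, -0.04 and 0.04 at 8 h. The 5 IL-1b arrays at 4 h lay above 0.6 and all 13 other arrays at 4 and 8 h lay below 0.1. The effect was 0.91 ± 0.08 at 4 h (adjusted p = 6.72e-08) and -0.03 at 8 h (adjusted p = 0.967), a change of -0.94 ± 0.12 (adjusted p = 0.000138) with the IL-1b arm at -0.85 (adjusted p = 2.28e-06) and the vehicle arm at 0.09 (adjusted p = 0.831).

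Tmem252, a small transmembrane protein gene, followed the same course. Tmem252 measured -0.38, -0.26, -0.26, 0.04 and 0.07 in vehicle arrays at 4 h and -0.14, -0.14, -0.10, -0.01 and 0.22 at 8 h. It measured 0.75, 0.83, 0.98, 1.05 and 1.14 in IL-1b arrays at 4 h and -0.44, -0.13 and 0.09 at 8 h. IL-1b arrays at 4 h lay above all others at 4 and 8 h, and at 8 h the groups overlapped. Its effect was 1.10 ± 0.12 at 4 h (adjusted p = 2.14e-06) and -0.12 at 8 h (adjusted p = 0.867), and the change of -1.23 ± 0.18 (adjusted p = 0.000901) lay in the IL-1b arm of -1.11 (adjusted p = 1.98e-05). Vehicle arrays differed by 0.12 (adjusted p = 0.857). Csf2rb and Tmem252 kept their call in each of the 18 fits without 1 array.

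Adamts1, Plau and Vgll4 were called lower under IL-1b at 4 h and were not called at 8 h. Adamts1 is a secreted metalloprotease of the matrix that is made by endothelium among other cells. In vehicle arrays its values were 0.19, 0.20, 0.29, 0.36 and 0.48 at 4 h and 0.36, 0.40, 0.56, 0.77 and 0.96 at 8 h. In IL-1b arrays they were -0.52, -0.46, -0.32, -0.28 and -0.21 at 4 h and 0.62, 0.96 and 1.15 at 8 h. IL-1b arrays at 4 h lay below every vehicle array at 4 or 8 h, and at 8 h the groups overlapped. The effect went from -0.66 ± 0.11 (adjusted p = 0.000723) to 0.30 (adjusted p = 0.266). IL-1b arrays rose by 1.27 ± 0.13 (adjusted p = 7.13e-07), vehicle arrays differed in the same direction by 0.30 (adjusted p = 0.376), and the change was 0.96 ± 0.17 (adjusted p = 0.00416). The change did not pass without vehicle 4 h replicate 3, IL-1b 4 h replicate 18, vehicle 8 h replicate 21, or IL-1b 8 h replicate 14 or 26, and was then as low as 0.85. After a further quantile normalization it was 0.63 (adjusted p = 0.696).

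Plau, the urokinase plasminogen activator, rose among IL-1b arrays by 0.86 ± 0.09 (adjusted p = 2.33e-06), with values of -0.53 to -0.17 at 4 h and of 0.33, 0.40 and 0.75 at 8 h, and its change was 0.66 (adjusted p = 0.00909). Vgll4, a cofactor of TEAD transcription factors, rose by 0.64 ± 0.09 (adjusted p = 0.000103), with values of -0.60 to -0.12 at 4 h and of 0.11, 0.30 and 0.37 at 8 h, with a change of 0.66 (adjusted p = 0.00823). Vehicle arrays differed by 0.20 for Plau and -0.02 for Vgll4, neither of which passed. Their changes were lost in 13 (Plau) and 12 (Vgll4) of the 18 fits without 1 array, and that of Plau also without both arrays of wide spread (adjusted p = 0.0686). Both effects at 4 h were called in every fit without 1 array, at -0.45 for Plau and -0.46 for Vgll4.

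Of 39 measured endothelial genes, Adamts1 was the 1 called for the change, against 0.174% over all probe sets. For the change 13 had an unadjusted p under 0.05, against 7.13% over all probe sets. In the IL-1b arm 7 passed, against 1.17% over all probe sets: Kdr, Myct1, Sox7, Fli1, Dll4 and Adamts1 rose between 4 and 8 h and Ednrb fell, while no vehicle arm passed (12 at an unadjusted p under 0.05, against 8.42% over all probe sets). Kdr, the main VEGF receptor of endothelium, rose among IL-1b arrays by 0.69 ± 0.14 (adjusted p = 0.00616) with values of -1.11 to -0.66 at 4 h and of -0.44, -0.0021 and 0.0021 at 8 h. Its effect was -0.94 at 4 h (adjusted p = 3.59e-05) and -0.51 at 8 h (adjusted p = 0.0403), and the change of 0.43 ± 0.19 did not pass (adjusted p = 0.579). Its IL-1b arm passed in 13 of the 18 fits without 1 array. Sox7, an endothelial transcription factor named like Myct1, Fli1, Dll4 and Ednrb after its value was seen, had a change of 0.68 ± 0.16 (adjusted p = 0.0423) with an IL-1b arm of 0.70 (adjusted p = 0.00077). In bulk muscle, fewer cells of a type and less RNA per cell cannot be told apart.

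Of 37 measured immediate early genes, Dusp1 was the 1 called lower and Klf10 the 1 called higher, against 0.174% called over all probe sets. Dusp1 is a phosphatase that switches off MAP kinases and is induced by stress and by glucocorticoids. Its vehicle arrays read -0.55, -0.13, -0.06, 0.06 and 0.14 at 4 h and -0.64, -0.16, -0.13, 0.11 and 0.19 at 8 h. Its IL-1b arrays read 0.03, 0.08, 0.22, 0.38 and 0.51 at 4 h and -1.14, -0.98 and -0.60 at 8 h. At 4 h the groups overlapped, and at 8 h the highest IL-1b array lay just above the lowest vehicle array. IL-1b arrays fell by 1.16 (SE 0.16, adjusted p = 8.1e-05) and vehicle arrays differed by -0.02. The change of -1.14 ± 0.22 was the nearest to the threshold among the 26 called genes (adjusted p = 0.00932), with an effect of 0.35 at 4 h (adjusted p = 0.355) and -0.78 at 8 h (adjusted p = 0.00383). The call was lost in 13 of the 18 fits without 1 array, with changes from -1.29 to -1.02. Just inside the threshold lay Dusp1, Mrtfa and Plau. Just outside lay Alpl (-0.80, adjusted p = 0.0114), P2ry2 (-0.62, adjusted p = 0.0114) and Fam117b (-0.53, adjusted p = 0.0126).

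Other early and inflammatory genes fell among IL-1b arrays without a called change. Selp, P-selectin, had values of 1.34, 1.71, 1.90, 1.93 and 1.93 in IL-1b arrays at 4 h and -0.23, -0.20 and -0.07 at 8 h, and its vehicle arrays lay at -0.30 to -0.02 (4 h) and 0.02 to 0.20 (8 h). The groups did not overlap at either time, with IL-1b above vehicle at 4 h and below it at 8 h. Its change of -2.21 ± 0.56 was the largest in size of the panel but did not pass in the fit of all 28 arrays (adjusted p = 0.0813). The call depended on the arrays that set the spread: with only the 18 arrays at 4 and 8 h the change passed (adjusted p = 2.62e-07). The SD of its IL-1b arrays at 2 h was 1.44, against 0.08 to 0.25 in the 4 groups at 4 and 8 h. No other panel gene gained a call with the 18 arrays. The called panel genes Dusp1 and Slc7a2 lost theirs in that fit (adjusted p = 0.0544 and 0.0218). The IL-1b arm of Selp, -1.93, passed narrowly (adjusted p = 0.00991) and in none of the 18 fits without 1 array (adjusted p up to 0.047). Its vehicle arm was 0.28 (adjusted p = 0.9).

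Il4ra, the interleukin 4 receptor, fell among IL-1b arrays by 0.60 (adjusted p = 0.000103), with a change of -0.49 ± 0.11 (adjusted p = 0.045). Osmr, the oncostatin M receptor, fell by 0.87 (adjusted p = 0.00616) and Zfp36, which destabilises cytokine mRNAs, by 1.02 (adjusted p = 0.00194), with changes of -0.56 and -0.92 that did not pass (adjusted p = 0.541 and 0.111). All 3 had a called effect at 4 h, 0.66, 1.05 and 1.09, and none at 8 h. Vehicle arrays differed by -0.10, -0.30 and -0.10, and none passed. The IL-1b arm of Osmr passed in 12 of the 18 fits without 1 array, and without both arrays of wide spread it was -0.64 and did not pass (adjusted p = 0.045). Zfp36 was higher in vehicle 4 h replicate 5 (0.67) than in the other vehicle arrays of that time. Fosl2 had effects of 0.59 and 0.07 and neither arm passed. Myc went the other way, rising among IL-1b arrays by 0.88 (adjusted p = 0.000407) without a called change (0.66, adjusted p = 0.14). Jun (0.23), Icam1 (-0.30) and Lcn2 (0.36) had changes that did not pass, and neither arm passed for any of them.

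The vehicle arrays moved for Ppargc1b, Nfatc2 and 1 probe set with several symbols. Ppargc1b encodes PGC-1b, a coactivator of mitochondrial and oxidative genes. The vehicle values of Ppargc1b were -0.13, -0.09, -0.04, -0.03 and -0.0041 at 4 h and 0.39, 0.41, 0.43, 0.51 and 0.60 at 8 h. The IL-1b values of Ppargc1b were -0.27, -0.16, -0.13, -0.10 and -0.05 at 4 h and -0.41, -0.40 and -0.21 at 8 h. The 5 vehicle arrays at 8 h lay above 0.35 and all other arrays at 4 and 8 h below 0. Vehicle arrays at 2 h had a mean of 0.20 (SD 0.17). Vehicle arrays rose by 0.53 ± 0.07 (adjusted p = 0.000687), IL-1b arrays differed by -0.19 (adjusted p = 0.364), and the change was -0.72 ± 0.11 (adjusted p = 0.00115). The effect called at 8 h (-0.80, adjusted p = 5.52e-07) was thus a difference from vehicle arrays that had risen since 4 h. The vehicle arm of Ppargc1b passed in all 18 fits without 1 array and without both arrays of wide spread (adjusted p = 0.00198).

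Nfatc2, a transcription factor activated by calcineurin, had vehicle values of -0.54, -0.45, -0.25, -0.22 and 0.02 at 4 h and 0.07, 0.24, 0.26, 0.31 and 0.34 at 8 h. Its IL-1b values were -0.17, -0.11, -0.10, -0.07 and 0.01 at 4 h and -0.44, -0.43 and -0.39 at 8 h. All vehicle arrays at 8 h lay above all at 4 h, and the IL-1b arrays did not overlap between times either, in the other direction. The vehicle arm of 0.53 ± 0.09 passed (adjusted p = 0.00456) and the IL-1b arm of -0.33 did not (adjusted p = 0.101), for a change of -0.87 ± 0.14 (adjusted p = 0.00132). Its vehicle arm passed in 11 of the 18 fits without 1 array and not without both arrays of wide spread (adjusted p = 0.0134), where the change still passed (adjusted p = 0.00945).

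Bhlhe41, a repressor that binds E-boxes and feeds back on the clock, lay between both classes. Bhlhe41 measured -0.09, -0.04, 0.01, 0.12 and 0.14 in vehicle arrays at 4 h and 0.49, 0.54, 0.71, 0.76 and 0.88 at 8 h. It measured -0.14, -0.04, -0.0034, 0.0034 and 0.10 in IL-1b arrays at 4 h and -0.60, -0.38 and -0.22 at 8 h. Among the arrays at 4 and 8 h, every vehicle array at 8 h lay above all others, and the 3 IL-1b arrays at 8 h lay below all others. The vehicle arm was the larger at 0.65 ± 0.12 but missed the threshold (adjusted p = 0.013), and the IL-1b arm was -0.38 (adjusted p = 0.232). Its change was -1.03 ± 0.19 (adjusted p = 0.00823) and -1.07 without both arrays of wide spread, when it did not pass (adjusted p = 0.0129). Leaving out 1 array ended the call in 13 of 18 fits.

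Of 14 measured core clock genes none was called for the change in limma, and 1 had an unadjusted p under 0.05 (7.13% of all probe sets did). Of 16 clock output and modulator genes measured, Bhlhe41 and Ppargc1b were called lower, against 0.174% called over all probe sets. Among these 16, 7 had an unadjusted p under 0.05. Among vehicle arrays 1 core clock gene was called higher and 1 lower, and 2 output and modulator genes higher, against 0.129% over all probe sets. There 5 core and 8 output and modulator genes had an unadjusted p under 0.05, against 8.42% over all probe sets. In the vehicle arm, Arntl fell by 0.87 (SE 0.16, adjusted p = 0.00926), from -0.16, -0.07, 0.05, 0.50 and 0.70 to -1.07, -0.93, -0.67, -0.39 and -0.26. Its IL-1b arrays differed by -0.08, and its change of 0.79 ± 0.24 did not pass (adjusted p = 0.204). The vehicle fall of Arntl passed in 7 of the 18 fits without 1 array and not without both arrays of wide spread (adjusted p = 0.0351). Per3 and the clock output gene Hlf, named after their values were seen, rose among vehicle arrays by 0.72 and 0.45 (adjusted p = 0.00317 and 0.00701). Their IL-1b arms of 0.39 and 0.19 had the same direction and did not pass. The core clock gene Cry2, named in the same way, rose among IL-1b arrays by 0.53 (adjusted p = 0.00435). Its vehicle arm of 0.46 did not pass (adjusted p = 0.0192). The changes of Per3, Hlf and Cry2 were -0.33, -0.26 and 0.08, and none was called. Per1, a clock gene that glucocorticoids also induce, had effects of 1.01 at 4 h (adjusted p = 0.000157) and 0.64 at 8 h (adjusted p = 0.0278) and a change of -0.36 ± 0.23 (adjusted p = 0.897), with arms of -0.12 (IL-1b) and 0.24 (vehicle) that did not pass. Dbp, a direct output of the clock, had arms of -0.07 and 0.63 that did not pass.

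Ppp1r3c and Cdkn1a showed the vehicle arm outside the called set. For Ppp1r3c, a subunit that directs protein phosphatase 1 to glycogen, vehicle values were -0.77, -0.59, -0.46, -0.22 and 0.03 at 4 h and -1.93, -1.88, -1.72, -1.25 and -1.18 at 8 h. IL-1b values were 0.24, 0.28, 0.40, 0.43 and 0.51 at 4 h and 0.05, 0.28 and 0.44 at 8 h. Vehicle arrays fell by 1.19 (SE 0.14, adjusted p = 0.00012) without overlap, and IL-1b arrays differed by -0.11 (adjusted p = 0.976). The effect was 0.77 at 4 h and 1.85 at 8 h, both called, and the change of 1.08 ± 0.22 missed the threshold (adjusted p = 0.0147). Cdkn1a, the cell cycle inhibitor p21, fell among vehicle arrays by 0.99 (adjusted p = 0.000687) and differed by -0.41 among IL-1b arrays (adjusted p = 0.274), and its change of 0.58 ± 0.21 did not pass (adjusted p = 0.38). Both vehicle falls passed in all 18 fits without 1 array.

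Among genes of muscle atrophy, Fbxo32 came nearest to a called change. This ubiquitin ligase gene, also known as atrogin-1, had vehicle values of -0.27, -0.05, 0.02, 0.09 and 0.10 at 4 h and -0.59, -0.54, -0.41, 0.17 and 0.17 at 8 h. Its IL-1b values were -0.01, 0.06, 0.13, 0.14 and 0.18 at 4 h and 0.90, 0.99 and 1.01 at 8 h. The 3 late IL-1b arrays thus lay above all others at 4 and 8 h. IL-1b arrays rose by 0.87 ± 0.16 (adjusted p = 0.00218), vehicle arrays differed by -0.22 (adjusted p = 0.725), and the change was 1.09 ± 0.21 (adjusted p = 0.0129). The effect was 0.12 at 4 h (adjusted p = 0.925) and 1.21 at 8 h (adjusted p = 2.16e-05). Foxo1, which drives Fbxo32, had called effects at both times, 1.03 ± 0.09 and 1.23 ± 0.10, and a change of 0.20 ± 0.14 (adjusted p = 0.966). Foxo3 had 0.48 and 0.79, also both called, and a change of 0.32 ± 0.14 (adjusted p = 0.573). The IL-1b and vehicle arms were -0.06 and -0.26 for Foxo1 and 0.31 and -0.01 for Foxo3, and none passed. Of 29 measured FoxO and ubiquitin ligase genes none was called for the change, 11 had an unadjusted p under 0.05 (7.13% of all probe sets did), 23 had a positive sign and the median was 0.18.

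Many glucocorticoid-induced genes had a called effect at 4 or 8 h, and 1 had a called change of it. Of 35 measured, 15 were called higher at 4 h (0.578% over all probe sets) and 19 at 8 h (1.02%). Dusp1 was the 1 called for the change (0.174% over all probe sets), toward lower values. The median change was 0.22 (0.13 without both arrays of wide spread), and 23 of 35 signs were positive. For the change 19 had an unadjusted p under 0.05 in limma, against 7.13% over all probe sets. Medians were -0.0015 in the IL-1b arm and -0.22 in the vehicle arm. The IL-1b median near 0 covers movement both ways. In that arm 1 gene was called higher and 5 lower, against 1.17% over all probe sets in either direction. There 21 had an unadjusted p under 0.05, against 10.3% over all probe sets. Averaged over its genes, the list lay between 0.46 and 0.68 on the IL-1b arrays at 4 h and between 0.32 and 0.61 on those at 8 h. Vehicle arrays lay between -0.42 and 0.18 at 4 h, with replicate 5 the highest, and between -0.66 and -0.20 at 8 h. Fkbp5, which binds the chaperone complex of the glucocorticoid receptor, differed by -0.78 between vehicle times (adjusted p = 0.0559) and by 0.46 between IL-1b times (adjusted p = 0.41), for a change of 1.24 ± 0.27 (adjusted p = 0.0355). Sesn1, a stress-induced inhibitor of mTORC1, had arms of 0.58 and -0.49 and a change of 1.07 ± 0.24 (adjusted p = 0.0375).

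Ddit4, another inhibitor of mTORC1 and a strong glucocorticoid target, had IL-1b values of 2.07, 2.08, 2.31, 2.37 and 2.69 at 4 h and -0.74, 0.14 and 1.14 at 8 h. Its vehicle values were -1.52, -1.46, -1.27, -1.17 and 1.24 at 4 h and -2.26, -1.53, -1.45, -0.68 and -0.67 at 8 h, with vehicle 4 h replicate 5 far above the rest of its group. IL-1b arrays fell by 2.12 (SE 0.47, adjusted p = 0.00971), a call kept in 3 of the 18 fits without 1 array, and the change of -1.64 ± 0.62 did not pass (adjusted p = 0.407). The remaining panel genes of this group had positive changes that did not pass: Depp1 1.18, Klf15 0.77, Glul 0.81, Pdk4 0.46 and Mt2 0.19 (adjusted p from 0.109 to 1). For none of these 5 did either arm pass, and 4 of them, all but Pdk4, had a called effect at 8 h. Serpina3n, an acute phase serpin gene outside this list, had a change of 0.97 (adjusted p = 0.369), no arm that passed and a called effect at 8 h. Klf9, Per2 and Nr1d1, also in the panel, could not be tied to 1 probe set of their own and were not analysed here.

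Over all probe sets 0.174% were called for the change and 7.13% had an unadjusted p under 0.05. The 5 lists described next held 0 or 1 called gene each. Among 34 genes of NF-kB signalling and leukocyte adhesion Tnfaip2 was the 1 called and 8 had an unadjusted p under 0.05. Their median change was -0.09 and 9 signs were positive. Fatty acid genes had 30 of 34 positive signs and a median of 0.20, with a median of 0.21 in the IL-1b arm. Ppargc1b was the 1 called, in the opposite direction, and 6 had an unadjusted p under 0.05. Proteasome subunits had 25 of 28 positive signs with a median of 0.12, none called and 5 at an unadjusted p under 0.05. Interferon and antigen presentation genes had 3 of 27 positive signs and a median of -0.14, none called and 6 at an unadjusted p under 0.05. Collagens and matrix genes had 8 of 38 positive signs and a median of -0.21 (-0.36 without both arrays of wide spread). Adamts1 was the 1 called, in the opposite direction, and 9 had an unadjusted p under 0.05. Over all probe sets 8714 of 17831 signs were positive.

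**Figure D4:**
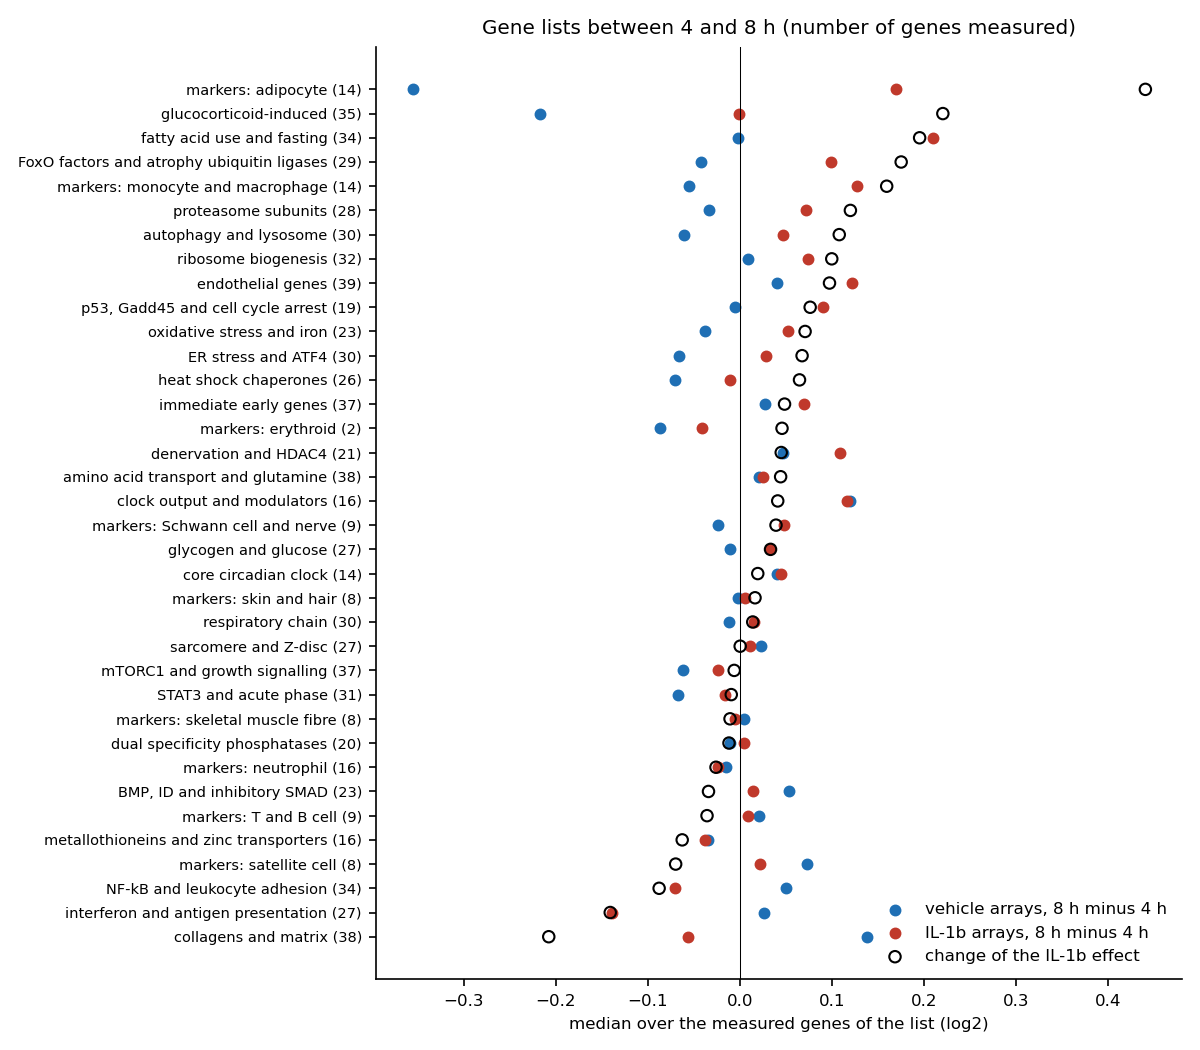
Median over the measured genes of each of 36 lists (number in brackets) of the vehicle arm (blue), the IL-1b arm (red) and the change of the IL-1b effect (open circles), in log2. Adipocyte markers and glucocorticoid-induced genes have their vehicle medians furthest below 0, and the matrix list has the lowest change.

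Markers of other cell types are given list by list. Adipocyte markers had 14 of 14 positive changes and a median of 0.44, with the vehicle arm at -0.35, and none was called (3 at an unadjusted p under 0.05, against 7.13% over all probe sets). Their mean was 0.85 in IL-1b 8 h replicate 14, against -0.11 and -0.15 in the other IL-1b arrays at 8 h, and ran from -0.01 to 0.43 in vehicle arrays at 4 h and from -0.21 to 0.15 at 8 h. The Bace1, Slc6a8, Slc7a2 and Adamts1 calls were among those lost without IL-1b 8 h replicate 14. Of the 31 called changes 19 were kept without it, and 19 also without IL-1b 8 h replicate 26, whose marker mean was -0.15. The part of adipocyte RNA in these calls was not tested. Monocyte and macrophage markers had 12 of 14 positive signs with a median of 0.16 (0.08 without both arrays of wide spread), neutrophil markers 5 of 16 with -0.03, and satellite cell markers 3 of 8 with -0.07 (-0.13 without these arrays), and none of these was called (1, 0 and 1 at an unadjusted p under 0.05). Schwann cell, T and B cell, skin and erythroid markers had medians between -0.04 and 0.05. The part of these cells in the changes was not tested.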

How the data were processed

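Skeletal muscle RNA was hybridised to Affymetrix arrays of whole-transcript design (labels' protocols). RMA and build mm9 are named by the submitters' processing notes, with no version. Values as deposited by the authors are log2, 1 for each of 17831 probe sets and array, each probe set with a median of 0 over the 28 arrays within 1e-06. The log base is not stated and was taken from RMA. Centred values carry no level and no signal over background, and the number of arrays limits the precision.

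A model with 1 coefficient for each of the 6 groups was fitted to all 28 arrays with limma 3.58.1 in R 4.3.3 (22 residual and 3.95 prior degrees of freedom), and 5 contrasts were taken: the change, its IL-1b and vehicle arms, and the effects at 4 and 8 h. The threshold was an adjusted p of 0.01, the false discovery rate that the design text names. An arm moved where its own contrast passed. Simulated data with these group sizes were used to test the fit.

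Gene names came from the platform's annotation (15620 with 1 symbol, 1370 with several and 841 with none), updated through RefSeq. Genes with several probe sets were represented by the lowest probe set number. Named genes, predicted genes passed over, were the 15 largest called changes in each direction, up to 4 called members of each list with 2 or more, and a panel of 33 genes, of which 30 were measured. The members and the 36 lists were chosen with earlier results of these data known. Promoter windows came from RefSeq, and the motifs were chosen after the genes were known. Alternatives covered the arrays in the fit, normalization, spread estimate, array weights, filter, threshold, replicate block and leaving out arrays.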

Additional observations from a re-analysis of the deposited data

Results flagged for a closer look

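The 26 named genes with a called change were selected by limma's test of that change (adjusted p under 0.01). That all 26 pass it is therefore no separate result, and their changes are only listed here. Toward higher values the changes were Tmem140 1.83, Klf10 1.79, Id3 1.29, Adamts1 0.96, Dapk1 0.95, Tgif1 0.94, Slc7a2 0.90, Enox2 0.86, Plau 0.66, Vgll4 0.66 and Rbm5 0.57. Toward lower values they were Ky -1.45, Tmem252 -1.23, Itgb6 -1.17, Dusp1 -1.14, Bhlhe41 -1.03, Slc4a4 -0.99, Csf2rb -0.94, Mrtfa -0.93, Tnfaip2 -0.91, Bace1 -0.89, Nfatc2 -0.87, Parp8 -0.75, Ppargc1b -0.72, Ccdc88c -0.47 and Slc6a8 -0.43.

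A single array stood far from the rest of its group in 6 of 162 gene and group pairs, where chance alone flags about 1 in 20. The pairs covered vehicle at 4 h, IL-1b at 4 h and vehicle at 8 h. IL-1b at 8 h, with 3 arrays, was not searched. Ddit4 was at 1.24 in vehicle 4 h replicate 5, against -1.52 to -1.17 in the other arrays. In the same array Zfp36 was at 0.67, against -0.35 to -0.08. Per1 was at -0.58 in vehicle 8 h replicate 9, against -0.04 to 0.15, and Cdkn1a was at -1.80 in vehicle 8 h replicate 1, against -1.28 to -1.08. Slc4a4 was at 0.17 in IL-1b 4 h replicate 13, against -0.08 to -0.03, and Slc7a8 was at 1.51 in IL-1b 4 h replicate 18, against 1.20 to 1.29.

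The arrays at 2 h, which entered only the estimate of the spread, held a called IL-1b effect for 2 named genes, Selp (2.64, adjusted p = 0.00119) and Icam1 (2.04, adjusted p = 0.000783).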

How the results depend on the processing

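All 31 called changes kept their sign under every alternative in which they were tested; counts of calls moved more. The change, the IL-1b arm, the vehicle arm and the effects at 4 and 8 h gave 31, 209, 23, 151 and 373 calls. With only the 18 arrays at 4 and 8 h the changes numbered 21, of which 17 were among the 31. The other counts were 112, 6, 94 and 248. In that fit 14 of the 26 named genes kept their call. Those that lost it were Adamts1, Tgif1, Slc7a2, Plau, Vgll4, Rbm5, Dusp1, Slc4a4, Mrtfa, Tnfaip2, Ccdc88c and Slc6a8. A further quantile normalization left 7 changes (all among the 31), with 66, 8 and 130 calls for the IL-1b arm, the vehicle arm and the 8 h effect. A trended and robust spread estimate gave 16 changes and 10 vehicle calls. Array weights gave 666, 2668, 87, 443 and 2630, but their estimation stopped before it converged. At an adjusted p of 0.05 the counts were 79, 437, 53, 265 and 718. With at least 1.75-fold they were 22 for the change and 46, 4, 42 and 78 for the others. Vehicle calls numbered 14 when the less variable probe sets were dropped and 7 without both arrays of wide spread. Leaving out 1 of the 18 arrays gave 21 to 37 changes, 108 to 234 IL-1b, 6 to 26 vehicle, 93 to 166 4 h and 254 to 386 8 h calls. The lowest IL-1b count was without IL-1b 8 h replicate 14. Of the 26 named genes 14 kept their call in all 18 such fits. Ccdc88c lost it in 15, Mrtfa and Tnfaip2 in 14, Plau, Dusp1 and Bhlhe41 in 13 and Vgll4 in 12. Quantile normalization kept Klf10, Ky, Tmem252, Itgb6, Csf2rb and Ppargc1b. Removing 3 arrays of wide spread, an alternative chosen after seeing the data, gave 35 changes. Few numbers are shared across groups, and the labels do not say whether a shared number ties samples together. Correlations ran from -0.07 to 0.68 over 4 shared numbers. With the numbers as a replicate block (consensus correlation 0.43) there were 40 changes and 98 calls at 4 h. No named gene has another probe set with a single symbol, so the alternative of other probe sets gave no value. The cause of these shifts was not tested.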
